A study of Mus musculus with 9 samples.

Results

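The genes of antigen presentation by class I molecules of the major histocompatibility complex (MHC) were examined in MC38 cells, a mouse colon carcinoma line from C57BL/6 animals. The 10 genes were chosen by symbol and cover the class I complex (H2-K1, H2-D1 and B2m), peptide transport and loading (Tap1, Tap2 and Tapbp), the immunoproteasome (Psmb8, Psmb9 and Psmb10) and the class I transactivator (Nlrc5). They were 10 of 16509 genes in the deposited table, and all 10 passed the filter on low counts that kept 11949 genes for testing. Messenger RNA from 9 libraries was compared, in 3 groups of 3 replicates. Control cells (Ctrl) are labelled as treated with DMSO, whereas the study's methods name PBS. Cu-Cys cells received copper chloride together with cystine. Cadict cells received a nanodrug assembled from copper and cystine that also carries glucose oxidase and is directed to the epidermal growth factor receptor by the GE11 peptide attached through DSPE-PEG. Neither a dose nor a time of treatment is given for these libraries, no genetic change is named in any group, and a single cell line was used. The study describes its replicates in general as biological, but whether these libraries came from separate cultures is not stated, so the p-values below measure the spread between these libraries, which may be partly technical.

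Class I molecules display peptides from the inside of a cell to CD8+ T cells. Proteasomes cut proteins into peptides, the TAP transporter carries the peptides into the endoplasmic reticulum, tapasin helps load them, and a heavy chain bound to beta-2-microglobulin takes them to the cell surface. Interferon-gamma is known to raise most genes of this pathway, to replace the constitutive catalytic subunits of the proteasome by the immunoproteasome subunits, and to induce NLRC5, which acts on class I promoters through factors bound at the X and Y boxes.

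The promoters of the 3 class I complex genes are shown first, because these genes moved together in the Cadict libraries and, with TMM scaling, in the opposite direction to the transport genes. Promoter windows of 300 bases were available for 8 of the 10 genes, from RefSeq on GRCm38.p6; the windows of Tap2 and Nlrc5 were not used here. Capitals mark a match to the NF-kappa-B consensus, then TGACG and then ATTGG (the Y box, CCAAT on the other strand). In B2m they also mark GAAANNGAAA, an element bound by interferon regulatory factors. TGACG is the half-site of a cAMP response element (CRE), and the part of the X box bound by RFX was not searched. The stretches run 5′ to 3′ on the strand of each gene, with H2-K1 at chr17:34000344-34000473 (minus strand), H2-D1 at chr17:35262908-35263037 (plus strand) and B2m at chr2:122147533-122147653 (plus strand).
H2-K1: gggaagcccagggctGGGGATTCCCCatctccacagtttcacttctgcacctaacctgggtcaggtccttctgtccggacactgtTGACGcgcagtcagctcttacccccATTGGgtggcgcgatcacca
H2-D1: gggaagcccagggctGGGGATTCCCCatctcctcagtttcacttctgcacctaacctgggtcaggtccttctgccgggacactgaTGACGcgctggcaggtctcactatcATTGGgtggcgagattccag
B2m: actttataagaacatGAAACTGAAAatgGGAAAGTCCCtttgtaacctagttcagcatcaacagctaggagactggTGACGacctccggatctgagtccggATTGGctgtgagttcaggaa

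In all 3 windows ATTGG began 25 bases after TGACG. This spacing, which was noticed after the matches were seen, occurred on either strand in 31 of 32851 promoter windows (0.0944%), and among the 8 member genes with a window it was present in these 3 alone. The printed H2-K1 and H2-D1 stretches are alike over most of their length, so their matches are not independent. Enrichment of the spacing was not tested. The NF-kappa-B consensus began 111 bases upstream of one annotated start of H2-K1 and 125 bases upstream of the other, 171 bases upstream in H2-D1 and 126 bases upstream in B2m. It was found in none of the other 5 member windows and in 8.46% of all windows, searched on both strands. TGACG was present in 5 of the 8 member genes against 20.8% of all windows, and CCAAT in 6 of 8 against 37.4%. Both counts include Psmb9 and Tap1, whose windows overlap and share the same TGACG and the same CCAAT. Members were counted per gene, H2-K1 over both its windows, whereas the percentages are per window. The exact string GAAANNGAAA was present in B2m alone against 3.44% of all windows. Variants of this string were not searched, so its absence does not show that H2-K1, H2-D1 or other windows lack an interferon regulatory factor element. TTCNNNGAA, the gamma-activated sequence of interferon-gamma signaling, was present in Psmb8 alone against 8.30% of all windows. No marked match overlapped another motif, apart from 2 NF-kappa-B matches offset by a base in H2-K1 and in H2-D1. A match describes letters in these windows and not binding in these cells.

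Psmb9 and Tap1 lie head to head on chromosome 17, with starts 226 bases apart on opposite strands, so that their windows share 275 of 300 bases. The whole stretch between the starts, at chr17:34187330-34187556, is shown on the Tap1 strand because results for this gene pair diverge below. Capitals mark CCAAT and TGACG.
Psmb9-Tap1: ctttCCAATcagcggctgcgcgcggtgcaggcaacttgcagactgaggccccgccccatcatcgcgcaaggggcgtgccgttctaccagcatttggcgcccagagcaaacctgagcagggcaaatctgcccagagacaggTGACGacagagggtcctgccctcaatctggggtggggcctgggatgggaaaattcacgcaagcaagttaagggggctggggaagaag
The match in Psmb8 is shown with 15 bases on either side, at chr17:34198083-34198121 on the plus strand, with TTCNNNGAA in capitals.
Psmb8: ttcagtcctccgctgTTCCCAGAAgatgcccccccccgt

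Library totals lay between 17905771 and 18293056 expected counts, that is, counts of reads estimated per gene. A count of 0 would allow up to 3 counts, which were 0.130 to 0.262 CPM (a count divided by the scaled size of its library) after scaling by the trimmed mean of M values (TMM); this limit covers counting error only. The TMM factors were 1.26 to 1.27 in Ctrl, 1.21 in Cu-Cys and 0.639 to 0.665 in Cadict libraries. The 50 most abundant genes took 11.8% to 11.9% of counts in Ctrl, 12.3% to 12.5% in Cu-Cys and 22.1% to 23% in Cadict libraries, and levels in Cadict libraries depended on how libraries were scaled. Bulk levels do not tell fewer cells of a type from less RNA per cell. Replicate 2 of Cadict stood apart from the other Cadict libraries, with chi-square per degree of freedom of 14.7 and 23.1 against them, whereas all other replicate pairs gave 1.88 to 4.53. Without it 5 members were called in each of the Cadict comparisons, as many as with it. Immune markers were near 0, with 5 listed genes in the table summing to 0.218 to 0.523 TMM CPM in any library. Of the defining epithelial markers, Epcam was at 0 in 8 of 9 libraries, and the epithelial markers summed to 5.32 to 6.83 TMM CPM in Ctrl, 3.97 to 4.38 in Cu-Cys and 24 to 26.1 in Cadict libraries, of which Krt19 and Cdh1 were the 2 tested genes. Stromal genes, mainly Col1a2, summed to 693 to 727 in Ctrl, 402 to 407 in Cu-Cys and 177 to 193 in Cadict libraries. These sums moved with treatment as several class I genes did, and their part in the results below was not tested.

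In Ctrl cells the 10 genes spanned a wide range of levels per transcript length. B2m was highest, with 3057 ± 11.6 TPM (a share of all transcripts after division by length; SD, n = 3), which placed it 44th of 11949 genes. H2-D1 followed with 987 ± 11.6 TPM and H2-K1 with 531 ± 10.7 TPM. Tapbp had 115 ± 4.07 TPM, Psmb8 57.5 ± 2.18 TPM, Psmb10 37.1 ± 1.93 TPM and Tap2 30.7 ± 2.86 TPM. The lowest were Tap1 with 17.5 ± 1.18 TPM, Psmb9 with 13 ± 1.66 TPM and Nlrc5 with 10.6 ± 0.171 TPM. No neighbours in this order overlapped in their Ctrl libraries. In Cu-Cys cells Psmb8 and Psmb10 overlapped, as did Tap1 and Nlrc5. In Cadict cells Tap1 had moved to the last place with 1.07 ± 0.18 TPM, below Nlrc5 with 2.55 ± 0.284 TPM.

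Comparing Cadict against Ctrl addresses what the nanodrug changed in these cells. With TMM scaling the 3 genes of the class I complex were higher with Cadict and 6 of the other 7 were lower. The study's methods set the threshold at a 2-fold change and an adjusted p of 0.001, at which 5 of the 10 genes were called. These were H2-K1, H2-D1 and B2m, higher, against 20.7% of all genes tested, and Tap1 and Tap2, lower, against 27.1%. At the weaker limit of an adjusted p of 0.05, whatever the fold, the criterion for "rose" and "fell" below, 3 rose (40.6% of all genes did) and 6 fell (47.1% did). The libraries of the 2 groups did not overlap for 9 of the 10 genes, and this was so for 87.5% of all genes. The median log2 fold change was -0.53 over the 10 genes and -0.13 over all genes tested. These tests used the quasi-likelihood method of edgeR, adjusted by Benjamini-Hochberg over all genes tested.

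**Figure D1:**
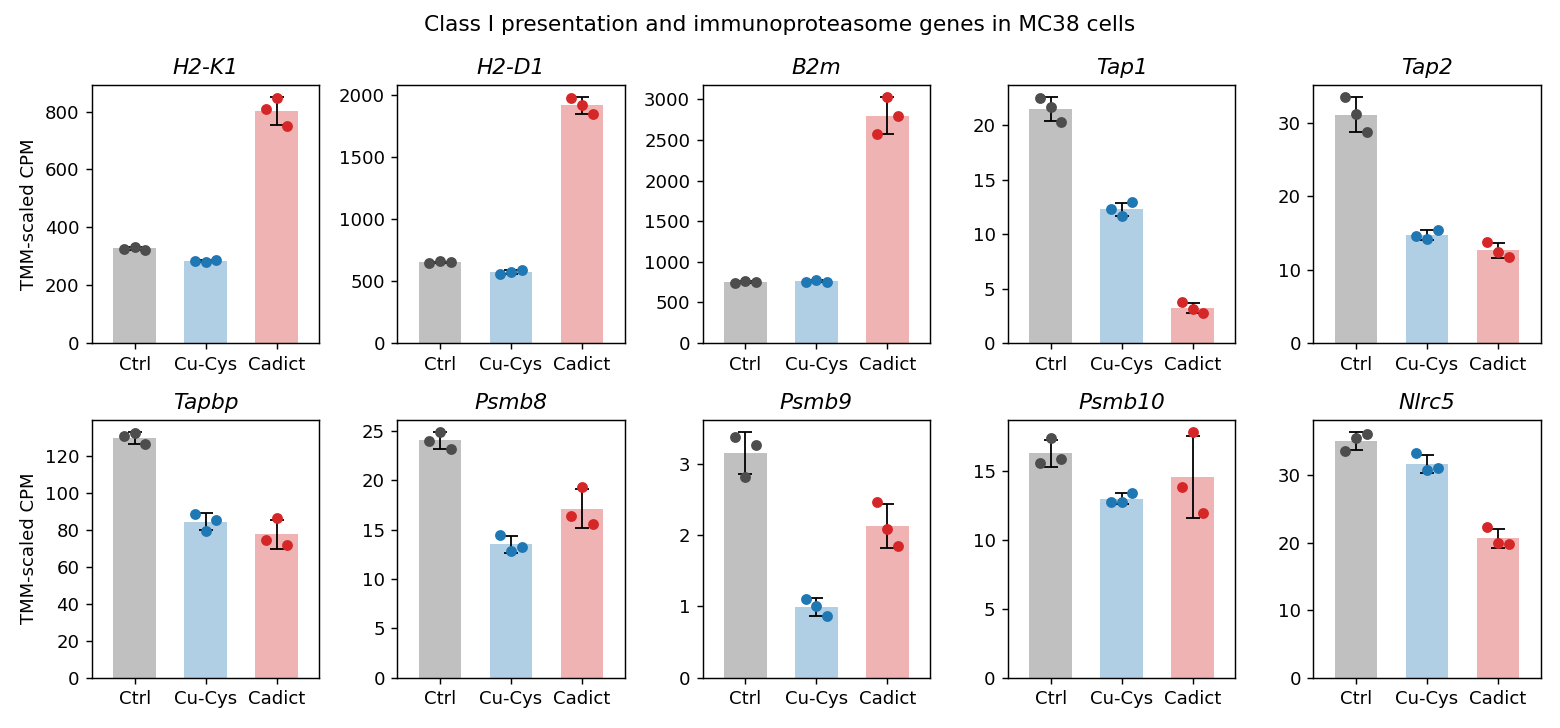
TMM-scaled CPM (scaled counts, linear axes from 0, a separate scale for each gene) of the 10 genes in Ctrl, Cu-Cys and Cadict cells. Points are the 3 libraries of a group, bars their mean and error bars the SD. H2-K1, H2-D1 and B2m are highest in all 3 Cadict libraries, Tap1 is lowest there, and Psmb9 is lowest in the Cu-Cys libraries.

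The classical heavy chain H2-K1 had 326, 334 and 323 TMM CPM in the 3 Ctrl libraries, 284, 279.6 and 288 in the Cu-Cys libraries and 808, 846 and 750.3 in the Cadict libraries. The Cadict libraries lay above all others, and the Cu-Cys libraries below the Ctrl libraries without overlap. H2-K1 rose 2.45-fold with Cadict, or 1.29 ± 0.05 on the log2 scale (± standard error, adjusted p = 1.6e-12). H2-D1, the other classical heavy chain, had 645, 657 and 649 TMM CPM in Ctrl, 553, 573 and 588 in Cu-Cys and 1979, 1922 and 1848 in Cadict libraries. It rose 2.95-fold (log2 fold change 1.56, standard error 0.05, adjusted p = 8.1e-14), with the same order of groups. B2m encodes beta-2-microglobulin, the light chain that every class I heavy chain needs to fold and reach the surface. Its TMM CPM were 743, 764 and 753 in Ctrl, 756, 770.4 and 753 in Cu-Cys and 2579, 3027 and 2799 in Cadict libraries. Here the Ctrl and Cu-Cys libraries overlapped, and all Cadict libraries lay far above them. B2m rose 3.72-fold (log2 fold change 1.89, standard error 0.06, adjusted p = 6.2e-14). The heavy chains share sequence with other class I genes: 9.63% of the 50-base stretches of H2-K1 and 12.8% of those of H2-D1 also occurred in another annotated gene, so reads could have been split among them, while B2m shared none.

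Tap1 encodes a subunit of the peptide transporter. Its expected counts were 520, 500 and 466 in Ctrl, 266, 256 and 283 in Cu-Cys and 44, 36 and 33 in Cadict libraries, or 21.5 ± 1.1, 12.3 ± 0.60 and 3.22 ± 0.489 TMM CPM (SD, n = 3). The 3 groups were fully separated, in the order Ctrl, Cu-Cys, Cadict. Tap1 fell to 15% of its Ctrl level with Cadict (log2 fold change -2.74, standard error 0.11, adjusted p = 2.6e-12), and 5.27% of all genes tested changed by a lower value. Tap2, the partner subunit, had 33.4, 31.2 and 28.7 TMM CPM in Ctrl, 14.6, 14.1 and 15.4 in Cu-Cys and 13.8, 12.4 and 11.8 in Cadict libraries. The Ctrl libraries were apart from both treatments, and the treated groups lay close together. Tap2 fell to 40.6% (log2 fold change -1.3, standard error 0.09, adjusted p = 8.0e-10). Tapbp encodes tapasin, which bridges the transporter and the empty class I molecule. Its levels were 131, 133 and 127 TMM CPM in Ctrl, 89, 79.7 and 85.3 in Cu-Cys and 74.5, 86.7 and 72 in Cadict libraries. Tapbp fell to 59.7% (log2 fold change -0.74, standard error 0.07, adjusted p = 3.4e-08), less than the 2-fold of the stricter threshold, and the treated groups overlapped.

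The immunoproteasome subunits had smaller log2 fold changes with Cadict than Tap1, Tap2 and Tapbp. Psmb8, the chymotrypsin-like subunit LMP7, had 24, 24.9 and 23.2 TMM CPM in Ctrl, 14.4, 12.8 and 13.3 in Cu-Cys and 16.4, 19.3 and 15.6 in Cadict libraries. Cadict libraries lay between the other groups, without overlap. Psmb8 fell to 71.2% of Ctrl (log2 fold change -0.49, standard error 0.09, adjusted p = 6.3e-05). Psmb9, the subunit LMP2, was the least counted member, with expected counts of 78, 65 and 75 in Ctrl, 24, 22 and 19 in Cu-Cys and 29, 24 and 22 in Cadict libraries. In TMM CPM the group means were 3.15 ± 0.298, 0.993 ± 0.121 and 2.13 ± 0.311 (SD, n = 3), with the Cadict libraries again between the others. Psmb9 changed with Cadict by -0.56 on the log2 scale (standard error 0.18, adjusted p = 0.00965). Psmb10, the subunit MECL-1, had 15.6, 17.4 and 15.9 TMM CPM in Ctrl and 13.9, 17.9 and 12 in Cadict libraries. These overlapped, with Cadict replicate 2 above all Ctrl libraries, and the log2 fold change of -0.17 (95% confidence interval -0.41 to 0.073) did not pass the test (adjusted p = 0.175).

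Nlrc5 encodes the transactivator of class I genes. Its TMM CPM were 33.6, 35.5 and 36.1 in Ctrl, 33.2, 30.8 and 31 in Cu-Cys and 22.3, 20 and 19.7 in Cadict libraries. The Cadict libraries were below all others. Nlrc5 fell to 58.9% of Ctrl with Cadict (log2 fold change -0.76, standard error 0.07, adjusted p = 4.9e-08). The transactivator was thus lowest in the libraries in which H2-K1, H2-D1 and B2m were highest under TMM scaling.

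The size of the changes in the class I complex depended on scaling, and for H2-K1 so did the sign. With library totals in place of TMM, the median log2 fold change of all genes in Cadict against Ctrl shifted by -0.95, and 0 members were called higher and 7 lower, compared with 3 and 2. Over all genes, 828 were called higher and 6148 lower, compared with 2472 and 3235. H2-K1 then differed by 0.34, H2-D1 by 0.61 and B2m by 0.94 on the log2 scale, all positive but under 2-fold. On the deposited TPM, tested with limma on log2(TPM + 1), H2-K1 differed by -0.020 (adjusted p = 0.715), H2-D1 differed by 0.25 and B2m by 0.56. The ranks by TPM moved little: B2m was 44th, 53rd and 49th of 11949 genes in Ctrl, Cu-Cys and Cadict cells, H2-D1 was 141st, 178th and 139th, and H2-K1 was 267th, 354th and 300th. The genes that were lower with TMM were lower by more under library totals, with Tapbp at -1.7, Psmb8 at -1.44, Psmb10 at -1.12 and Nlrc5 at -1.72. As shares of all counts, the 3 class I complex genes took 0.219% in Ctrl, 0.195% in Cu-Cys and 0.361% in Cadict libraries, and the other 7 genes took 0.0331%, 0.0206% and 0.00967%. H2-K1, H2-D1 and B2m thus lay above each of the other 7 genes in log2 fold change under the 4 scalings plotted, whereas the sign of H2-K1 and the calls of all 3 depended on the scaling.

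**Figure D2:**
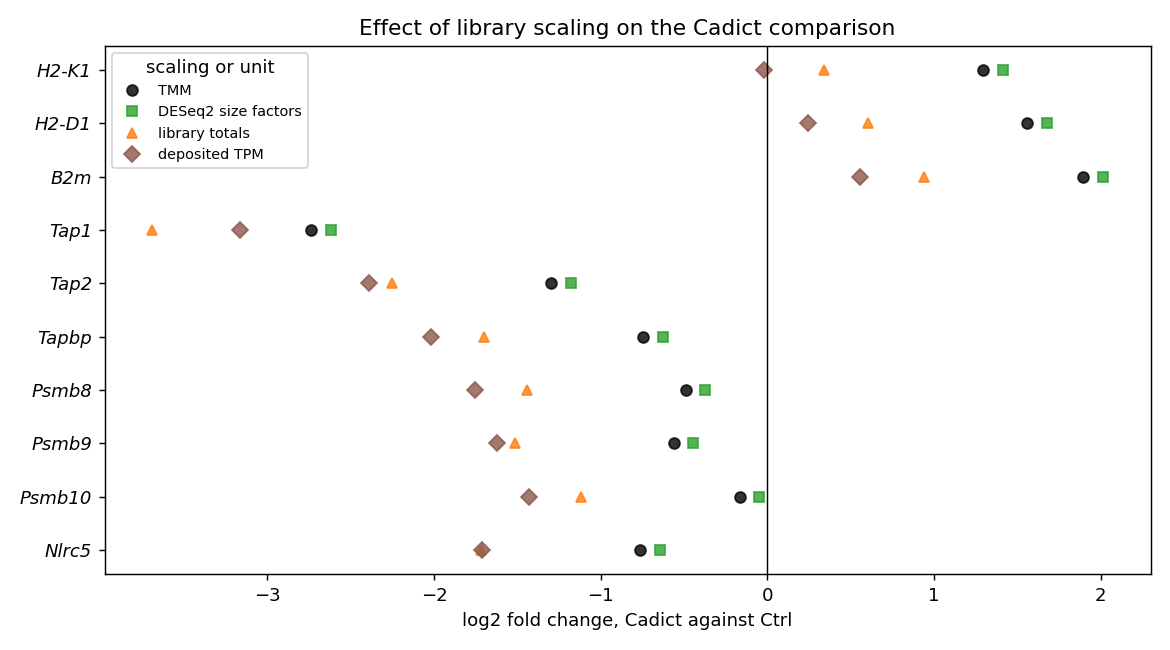
Log2 fold change of each gene in Cadict against Ctrl (horizontal axis) under 4 scalings: TMM (circles), DESeq2 size factors (squares), library totals (triangles) and the deposited TPM with a pseudocount of 1 (diamonds). H2-K1 lies between -0.020 and 1.41, while Tap1, Tap2, Tapbp and Nlrc5 lie below 0 under all 4.

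Cu-Cys against Ctrl addresses copper and cystine without the enzyme and the targeting peptide. Here the scalings differed little, with a shift of -0.068 in the median log2 fold change under library totals. Of the 10 genes, 0 were called higher (0.167% of all genes were) and 2 were called lower, Tap2 and Psmb9, against 1.47% of all genes. At an adjusted p of 0.05, 0 of the 10 genes rose and 8 fell, whereas 22.6% of all genes rose and 22.4% fell. At an unadjusted p of 0.05, 0 were higher and 9 lower by edgeR, and 0 higher and 8 lower by DESeq2. Libraries did not overlap for 9 of 10 members and for 61.2% of all genes. The median log2 fold change was -0.47 over the members and 0.0067 over all genes tested.

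Psmb9 had the largest change of the 10, falling to 31.6% of Ctrl (log2 fold change -1.66, standard error 0.18, adjusted p = 6.4e-06), and 0.569% of all genes tested changed by a lower value. Tap2 fell to 47.3% (log2 fold change -1.08, adjusted p = 1.0e-07), Tap1 to 57.2% (-0.80, adjusted p = 1.8e-06), Psmb8 to 56.2% (-0.83, adjusted p = 1.8e-06) and Tapbp to 65% (-0.62, adjusted p = 3.4e-06). Psmb10 fell to 79.6% (adjusted p = 0.0176), from 15.6, 17.4 and 15.9 to 12.8, 12.8 and 13.5 TMM CPM. The heavy chains fell slightly, H2-K1 to 86.7% (adjusted p = 0.00436) and H2-D1 to 87.9% (adjusted p = 0.00494). B2m gave a log2 fold change of 0.012 (95% confidence interval -0.11 to 0.13, adjusted p = 0.882), a value whose sign turned under library totals. Nlrc5 gave -0.15 (95% confidence interval -0.28 to -0.014) and did not pass the adjusted threshold (adjusted p = 0.0668), although its libraries did not overlap.

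Cadict against Cu-Cys sets the complete nanodrug against copper and cystine, at doses that are not given. It shares the Cadict libraries with the first comparison and the Cu-Cys libraries with the second, so the 3 sets of values are not independent. Called higher were H2-K1 (log2 fold change 1.5), H2-D1 (1.75), B2m (1.88) and Psmb9 (1.1), 4 of 10 against 18.6% of all genes, and called lower was Tap1 (-1.93, standard error 0.12, adjusted p = 5.5e-10), against 23.6%. Under library totals 0 members were called higher and 4 lower, whereas 688 of all 11949 genes were called higher and 5705 lower. At an adjusted p of 0.05, 5 rose (40.3% of all genes did) and 3 fell (45.6% did), and libraries did not overlap for 8 members and for 85% of all genes. Tap2 was lower with Cadict by a small margin (-0.22, adjusted p = 0.0406), Tapbp had a difference of -0.12 (95% confidence interval -0.27 to 0.022), and Nlrc5 was lower with Cadict (-0.62, adjusted p = 8.0e-07). The immunoproteasome differences rested on scaling. Psmb8 was 0.34 with TMM and -0.54 with library totals, and Psmb9 was 1.1 with TMM, 0.22 with library totals and -0.021 on TPM. The call of Psmb9 was also lost without Cu-Cys replicate 2 (adjusted p = 0.0013), Cu-Cys replicate 3 (0.0020) or Cadict replicate 1 (0.0029). Psmb10 did not pass the test (0.16, adjusted p = 0.20) and turned sign without Cadict replicate 2 (-0.011).

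**Figure D3:**
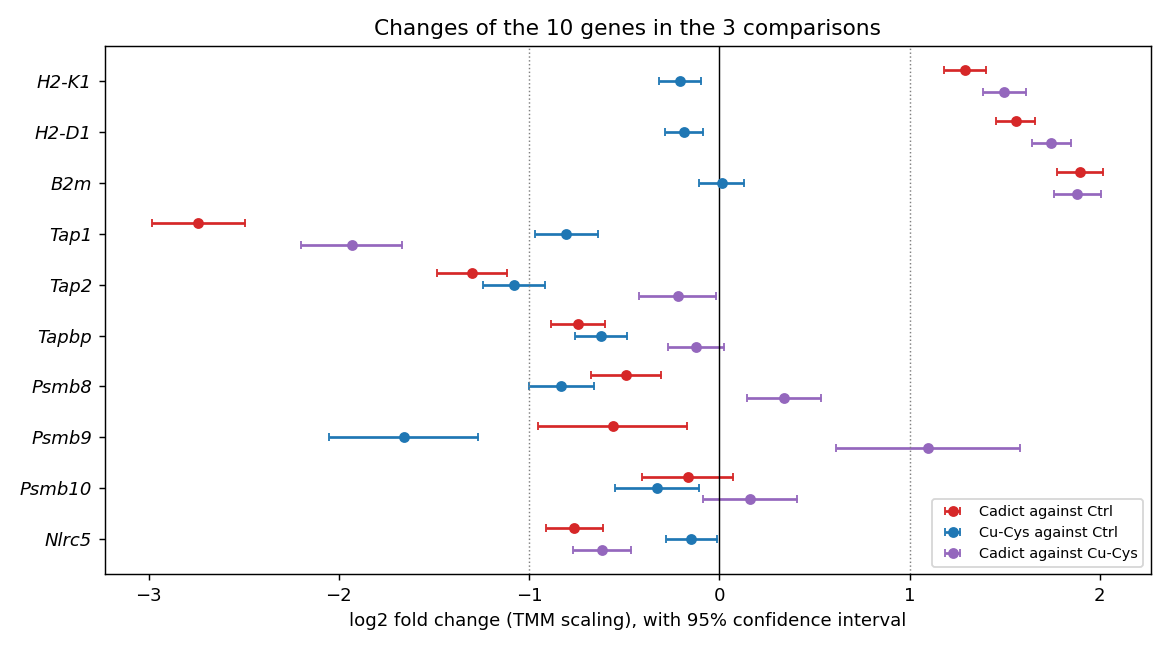
Log2 fold change with TMM scaling (horizontal axis) of the 10 genes in the 3 comparisons. Points are estimates, error bars the 95% confidence interval, and dotted lines a 2-fold change. H2-K1, H2-D1 and B2m lie right of the dotted line in both Cadict comparisons, and in Cu-Cys against Ctrl all genes except B2m lie left of 0.

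Ratios of 2 genes within a library do not depend on how libraries are scaled, and each immunoproteasome subunit was therefore compared with the constitutive subunit whose place it takes. These were Psmb8 with Psmb5, Psmb9 with Psmb6 and Psmb10 with Psmb7. Together with the ratio of the heavy chains these were 4 ratios of TPM, tested over all 1680 assignments of the 9 libraries to 3 groups of 3 with an exact permutation test (two-sided, smallest possible p 0.00357) and adjusted over the 4. A comparison of 3 libraries with 3 cannot reach an exact p below 0.10, so pairs of groups were not tested.

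Psmb8 was 25.6% ± 1.93 of Psmb5 in Ctrl (SD, n = 3), 11.7% ± 0.81 in Cu-Cys and 8.45% ± 0.491 in Cadict cells (exact permutation p = 0.00357, adjusted 0.00714). The 3 groups did not overlap. Psmb10 was 11.5% ± 0.411 of Psmb7 in Ctrl, 7.21% ± 0.398 in Cu-Cys and 2.09% ± 0.217 in Cadict cells (exact permutation p = 0.00357, adjusted 0.00714), again without overlap. Psmb9 was 6.6% ± 0.904 of Psmb6 in Ctrl, 1.69% ± 0.383 in Cu-Cys and 1.28% ± 0.267 in Cadict cells (exact permutation p = 0.00714, adjusted 0.00952). Here the treated groups overlapped with each other and lay below all Ctrl libraries. On the log2 scale the ratios differed between Cadict and Ctrl by -1.60 for Psmb8, -2.38 for Psmb9 and -2.46 for Psmb10, and between Cu-Cys and Ctrl by -1.13, -1.98 and -0.67. Under TMM scaling Psmb5, Psmb6 and Psmb7, the denominators, were themselves higher with Cadict (values below). Psmb5 is uncertain, because 54.1% of its 50-base stretches also occurred in another annotated gene, mostly Gm3375. The ratio of H2-D1 to H2-K1 was 1.86 ± 0.0177 in Ctrl, 1.88 ± 0.0512 in Cu-Cys and 2.24 ± 0.10 in Cadict cells (exact permutation p = 0.0179, adjusted 0.0179), and it was higher in all 3 Cadict libraries than in the other 6.

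**Figure D4:**
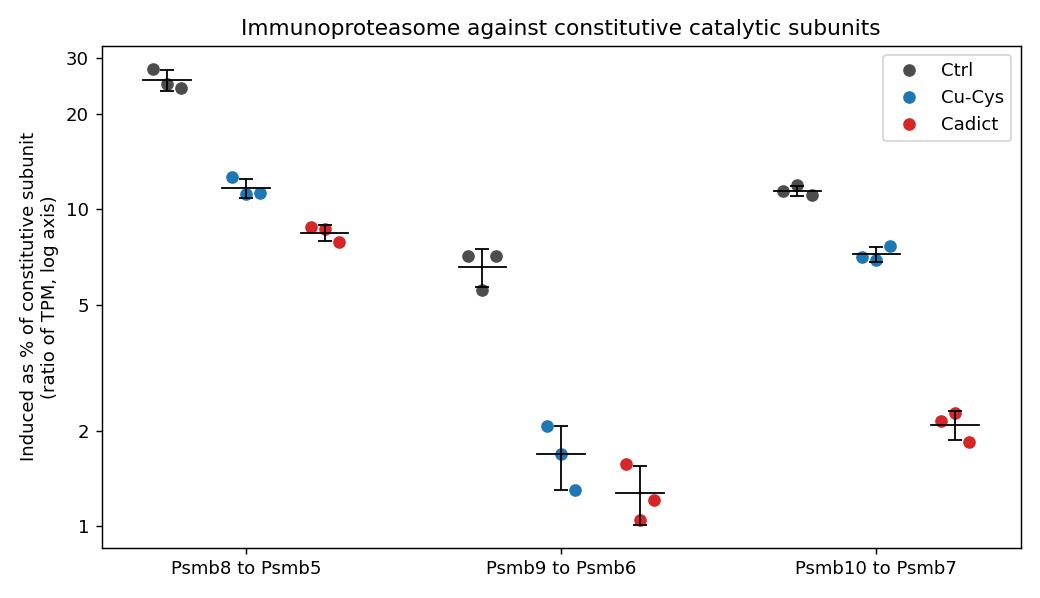
TPM of each induced subunit as a percentage of its constitutive counterpart (log axis) in Ctrl, Cu-Cys and Cadict cells. Points are the 3 libraries of a group, horizontal lines the mean and error bars the SD. All treated libraries lie below all Ctrl libraries for the 3 pairs, and Psmb10 to Psmb7 is lowest with Cadict, near 2.09%.

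Psmb9 and Tap1, which face each other across the stretch printed above, did not keep a fixed ratio. The TPM ratio of Psmb9 to Tap1 was 0.747 ± 0.108 in Ctrl, 0.404 ± 0.0958 in Cu-Cys and 3.34 ± 0.132 in Cadict cells (SD, n = 3). Psmb9 was thus the lower of the pair in Ctrl and Cu-Cys libraries and the higher in all 3 Cadict libraries. The ratio of Tap1 to Tap2, whose products form the transporter in equal numbers, was 0.57 ± 0.0147, 0.689 ± 0.00527 and 0.21 ± 0.0142 in the same order. Tap1 became the scarcer transcript by a wider margin with Cadict. Both ratios were computed after the values of the genes had been seen, and they are given without a test.

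The pathway around the 10 genes was followed in 4 further lists of 45 genes, 42 of which were in the table and 38 of which were tested. In Cadict against Ctrl 14 of the 38 were called, 7 higher (18.4%, against 20.7% of all genes) and 7 lower (18.4%, against 27.1%). At an adjusted p of 0.05, 18 of the 38 rose (40.6% of all genes did) and 12 fell (47.1% did). Their median log2 fold change was 0.33, compared with -0.13 over all genes. This split depended on scaling, with 1 called higher and 13 lower under library totals (median -0.62) and 0 higher and 16 lower on TPM (median -0.80). In Cu-Cys against Ctrl 0 of 38 were called by edgeR or by DESeq2, and the median was -0.057. Of the 38, 9 rose (22.6% of all genes did) and 12 fell (22.4% did). At an unadjusted p of 0.05, 10 were higher and 13 lower by edgeR, and 10 and 12 by DESeq2. In Cadict against Cu-Cys 13 were called, 7 higher (18.4%, against 18.6% of all genes) and 6 lower (15.8%, against 23.6%), compared with 1 higher and 11 lower under library totals. Over all genes, library totals gave 688 higher and 5705 lower in this comparison.

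Most constitutive proteasome subunits, assembly factors and activators were higher with Cadict under TMM scaling. Of 8 genes tested, 5 were called higher (20.7% of all genes were), with a median log2 fold change of 1.3. Of these 8, 6 rose (40.6% of all genes did) and 0 fell (47.1% did). Psmb7 had 86.3, 92.2 and 91 TMM CPM in Ctrl and 412, 503 and 408 in Cadict libraries (2.3, adjusted p = 1.1e-13). Psmb6 changed by 1.83, Pomp, which assembles new proteasomes, by 1.82, the nuclear activator Psme3 by 1.48 and Psmb5 by 1.12. Under library totals Psmb7, Psmb6, Pomp, Psme3 and Psmb5 were still above 0 (1.34, 0.88, 0.87, 0.53 and 0.17), with Psmb7 alone called. Of the 8, 3 were below 0 there, and the median was 0.35 (-1.08 over all genes). On TPM 4 of the 8 were below 0, among them Psmb5 at -0.21, and the median was -0.021 (-1.13 over all genes). There 0 were called higher and 2 lower, the activators Psme1 (-1.27) and Psme4 (-1.2), which are named for this turn after their values were seen. With Cu-Cys 5 of the 8 rose (22.6% of all genes did) and 1 fell (22.4% did), with Psmb7 at 0.35 and Psmb6 at 0.28.

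Of the other class I chains, which include nonclassical molecules, 8 of 12 in the table were tested. With Cadict 2 rose (40.6% of all genes did), 3 fell (47.1% did) and 3 did not pass. Called were 0 higher (20.7% of all genes were) and 2 lower (27.1% were). The called genes were Mr1, which presents microbial metabolites (-1.8), and H2-T22 (-1.73), while H2-T23, the mouse Qa-1 chain, and H2-Q4 changed by 0.72 and 0.54. Under library totals and on TPM all 8 were below 0 and 3 were called lower, with H2-T23 and H2-Q4 below 0 under library totals (-0.23 and -0.41). The median of these chains was -0.76 under library totals, compared with -1.08 over all genes. With Cu-Cys all 8 had negative values and 5 fell (22.4% of all genes did), with Mr1 at -0.78, H2-Q4 at -0.58 and H2-T23 at -0.57. The list's median was -0.54, compared with 0.0067 over all genes.

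Among 10 loading chaperones and trimming enzymes tested, 4 rose (40.6% of all genes did) and 3 fell (47.1% did) with Cadict. Called were 2 higher (20.7% of all genes were) and 1 lower (27.1% were). The called genes were Tapbpl, a peptide editor related to tapasin (-2.02, from 12.4, 12.2 and 12.3 to 2.46, 3.22 and 3.36 TMM CPM), lower, and Lap3, a cytosolic aminopeptidase (1.15), and Canx, the chaperone calnexin (1.06), higher. Under library totals 8 of the 10 were below 0, with 0 called higher and 4 lower. The median was -0.88 (-1.08 over all genes), compared with 0.075 under TMM (-0.13 over all genes). On TPM all 10 were below 0, with 0 called higher and 5 lower. On TPM Lap3 and Canx were at -0.15 and -0.24, while Tapbpl was below 0 under all 5 scalings run. With Cu-Cys 2 rose (22.6% of all genes did) and 2 fell (22.4% did), and none was called.

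Of 12 transcription factors of class I genes, 6 rose (40.6% of all genes did) and 6 fell (47.1% did) with Cadict. With TMM scaling 4 were called, all lower (27.1% of all genes were), of which 3 are named here. Under library totals, FPKM and TPM all 12 were below 0 and 6 were called lower. The median was -1.06 under library totals (-1.08 over all genes), compared with -0.11 under TMM (-0.13 over all genes). Under DESeq2 size factors 6 were above 0 and 6 below, with a median of 0.014. There 1 was called higher and 3 lower. Irf1, the interferon regulatory factor that drives the interferon response of this pathway, had 49.9, 45.3 and 50.2 TMM CPM in Ctrl, 34.1, 34.9 and 30.7 in Cu-Cys and 3.91, 4.1 and 2.85 in Cadict libraries, a log2 fold change of -3.74 with Cadict. Rfxap and Rfx5, subunits of the RFX complex that binds the X box, changed by -2.88 (adjusted p = 8.6e-11) and -1.0 (adjusted p = 1.4e-07). The third subunit, Rfxank, differed in direction (0.92 with TMM scaling, -0.031 with library totals). Under DESeq2 size factors Rfxank was called higher (1.04), and Rfx5 (-0.89) was no longer called. The NF-kappa-B subunits Rela and Nfkb1 changed by 0.85 and 0.75 with TMM scaling, and by -0.10 and -0.21 with library totals. Irf1, Rfxap and Rfx5 were below 0 under all 5 scalings run. With Cu-Cys 2 rose (22.6% of all genes did) and 4 fell (22.4% did), among them Rfx5 (-0.75) and Irf1 (-0.54). Rfxap gave 0.20 (adjusted p = 0.0781). Creb1, whose product binds CRE sites, changed with Cadict by -0.93 with TMM scaling and by -1.88 with library totals. Rfxank was named for the X box, Creb1 for TGACG, and Rela and Nfkb1 for the NF-kappa-B matches in the printed promoters. Nfya, Nfyb and Nfyc, named for CCAAT, changed with Cadict by -0.63, 0.42 and 0.59 with TMM scaling. With library totals they changed by -1.58, -0.53 and -0.36. Irf2, named beside Irf1, changed by 0.81 with TMM scaling and by -0.14 with library totals. These genes were named after their values were seen.

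**Figure D5:**
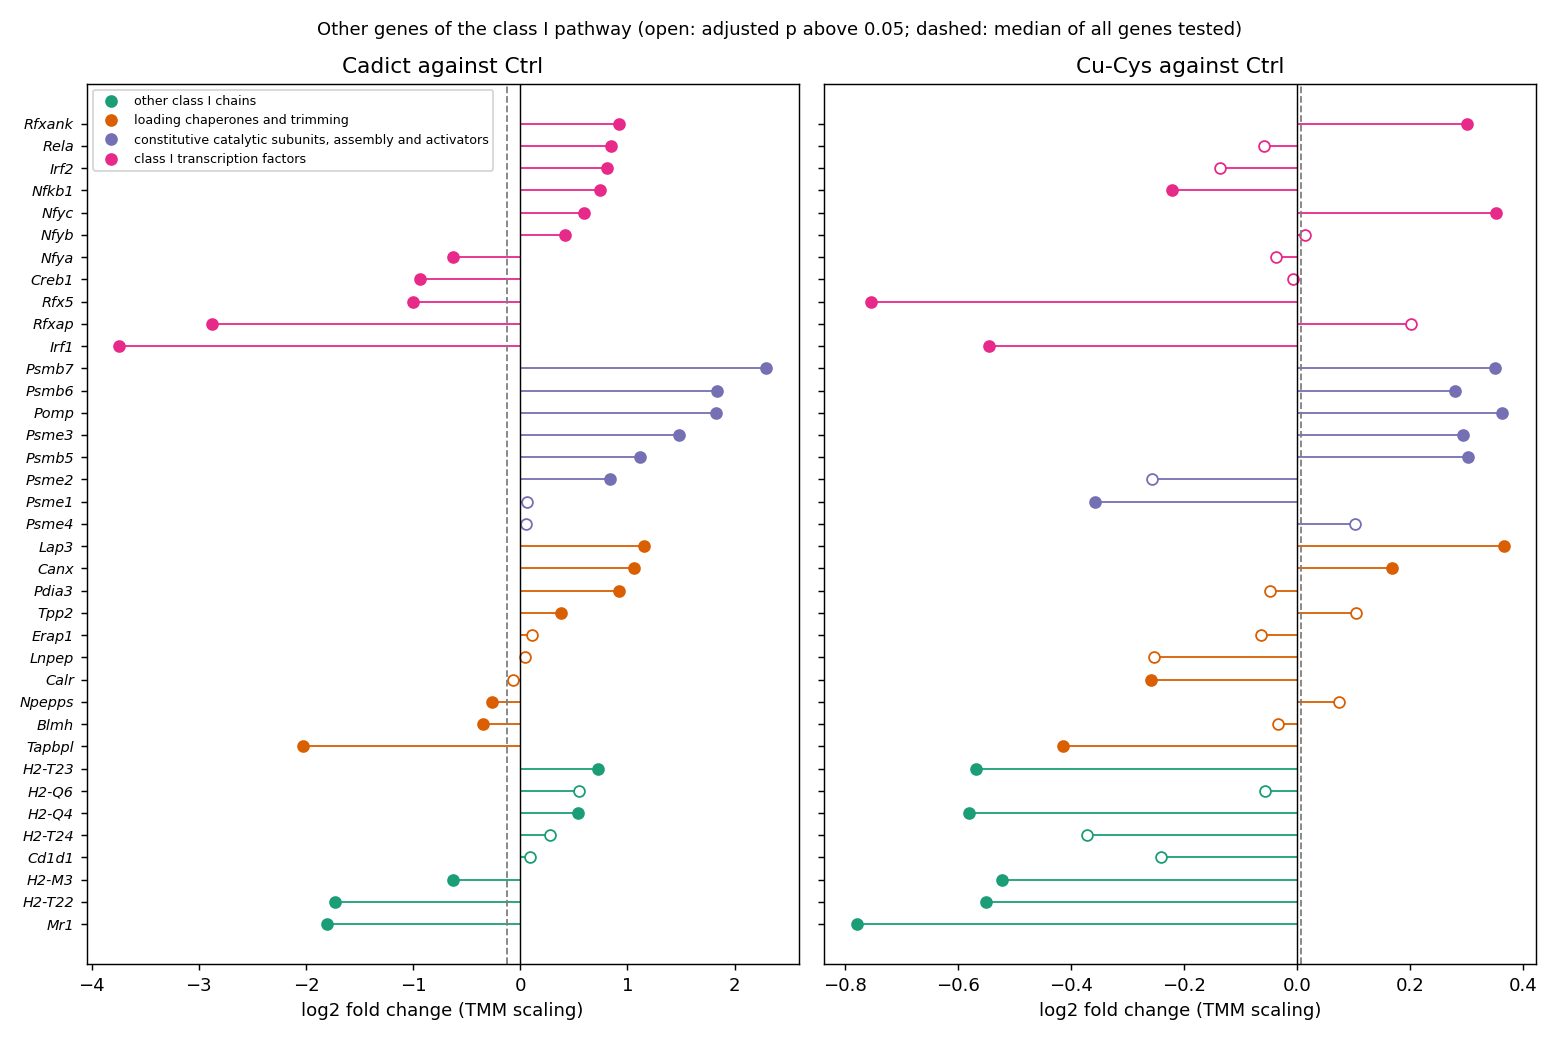
Log2 fold change with TMM scaling of 37 of the 38 other pathway genes tested, coloured by list, in Cadict against Ctrl (left) and Cu-Cys against Ctrl (right, with its own scale). Filled points passed an adjusted p of at most 0.05, open points did not, and the dashed line is the median of all genes tested. With Cadict the proteasome genes are all above 0 and Irf1 is lowest at -3.74; with Cu-Cys all class I chains are below 0.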

How the data were processed

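Poly(A) RNA of MC38 cells was sequenced in 9 libraries. The authors deposited 1 table with, for each library, an expected count (reads estimated per gene, not normalized), FPKM and TPM. The submitters' processing notes name HISAT2 2.1.0, Bowtie2 2.3.4.3, RSEM 1.3.1, GRCh38.p13 and GRCm39, without a role for each. The study's methods name TRIzol and an Illumina instrument, the labels a column kit and DNA nanoballs. Groups came from the labels. Columns headed CC were read as Cu-Cys by its initials, and those headed CCGE as Cadict from its components, an inference. A further 21 columns, of normalized counts and averages, were not used.

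Expected counts were rounded and tested in R 4.3.3 with edgeR 4.0.16 (filterByExpr, TMM, quasi-likelihood, 1 model with the 3 groups) and Benjamini-Hochberg adjustment over 11949 genes. On simulated data the procedure was tested before use. Alternatives used DESeq2 1.42.0, library totals, limma 3.58.1 on FPKM and TPM, other filters, a replicate block and leaving out each library. TPM ratios and promoter motifs were computed in Python 3.11.15. Promoters came from RefSeq (GRCm38.p6), not the submitters' build, and GENCODE transcripts on GRCm38 gave the shared 50-base stretches.

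The members, the lists and the tests were chosen with earlier results of these data known. All members were named, and of each further list at most 4 genes called in a comparison, averaging 1 CPM or more, with the largest change with Cadict. One gene selected in this way is left out by name and counted only within its list. Listed genes that were not in the table were not analysed here.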

Additional observations from a re-analysis of the deposited data

How the results depend on the processing

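Counts of called members and of other pathway genes, and the 4 level ratios, stayed within 1.5 times or on the same side of the test under 61 of 68 alternatives and under all 90 fits that left out a library. The counts took higher and lower calls together, so a change of direction did not register. In Cadict against Ctrl, other pathway genes went from 7 higher and 7 lower to 1 and 13 under library totals, within 1.5 times. The members, whose higher calls were all lost under library totals, also stayed within it. Without a limit on the fold, at an adjusted p of 0.05, 9, 8 and 8 members and 30, 21 and 32 other pathway genes passed in the comparisons of Cadict with Ctrl, Cu-Cys with Ctrl and Cadict with Cu-Cys, compared with 5, 2 and 5 members and 14, 0 and 13 other pathway genes called at the stricter threshold. At the stricter threshold, limma on FPKM called 2 members in Cadict against Cu-Cys. Leaving out 1 library gave 5, 2 and 4 to 5 called members, and 13 to 14, 0 and 12 to 14 other pathway genes, in the 3 comparisons. With 1 library left out, the ratio differences between Cadict and Ctrl (log2) stayed at -1.64 to -1.54 for Psmb8, -2.54 to -2.25 for Psmb9, -2.53 to -2.38 for Psmb10 and 0.25 to 0.30 for H2-D1 to H2-K1. Among the 68 alternatives, those for the ratios used FPKM and expected counts. Within a library such ratios differ from TPM ratios mainly by rounding or transcript length, so their outcome could hardly change. The same-numbered libraries did not deviate together (correlations -0.22 to 0.14 over 8551 genes), and their numbers do not pair them; with the replicate block 5, 2 and 5 members and 14, 0 and 13 other genes were called, the same as without it.

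Scaling changed directions. H2-K1 in Cadict against Ctrl was -0.020 on TPM with a pseudocount of 1 or 0.1. B2m in Cu-Cys against Ctrl was -0.057 with library totals, -0.012 with at least 10 counts in every library, -0.068 on FPKM and -0.14 on TPM with either pseudocount. In Cadict against Cu-Cys, Psmb8 was -0.54 with library totals, -0.53 on FPKM, and -0.80 and -0.83 on TPM. Psmb9 was -0.021 and -0.026 on TPM. Psmb10 was -0.72 with library totals, -0.70 on FPKM, -0.97 and -1.02 on TPM, and -0.011 (without Cadict replicate 2) to 0.28 when 1 library was left out. The calls over all genes moved too: called genes in Cadict against Ctrl were 2472 higher and 3235 lower with TMM, 2746 and 2940 with DESeq2 size factors, and 828 and 6148 with library totals. Over the changes of single members, 199 of 270 values outside the fits that left out a library kept direction and call status. A call needed both a 2-fold change and an adjusted p of at most 0.001. Of the remaining values, 30 gained a call, 24 lost it and 17 turned sign. Depth limited Psmb9 most, with 19 to 78 expected counts per library. Which scaling is nearer to amounts per cell was not tested.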

Other observations

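Near Tap1 and Psmb9 on chromosome 17 lie genes of class II presentation, and the classical class II chains among them were near 0. H2-Ab1 had at most 2 expected counts in any library, and H2-Aa and H2-Eb1 at most 1. Cd74, the class II invariant chain, had 0.216, 0.433 and 0.174 TMM CPM in Ctrl and 1.27, 1.74 and 0.84 in Cadict libraries, or 2.19 on the log2 scale (standard error 0.43, adjusted p = 2.1e-04) at a level near the limit of detection. H2-DMb1 and H2-DMa, which encode a class II peptide exchange factor, had up to 332 and 93.8 expected counts, and Brd2, a bromodomain protein gene, up to 6076.

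Genes with the pattern most like a member's were ranked by the root mean square difference of centred log2 CPM over the 9 libraries, among 8550 genes. The genes most like Nlrc5 were Ube3b (0.051), Igf1r (0.054) and Mxi1 (0.057), and its most similar member was Tapbp (0.249, place 1743). The member most like H2-K1 was H2-D1, at place 90. Tap1 was most like Tent5b (0.112), Arrdc3 (0.121) and Zer1 (0.124), with Tap2 at place 1900. Psmb8 was most like Entpd2 (0.103), Dusp8 (0.110) and Lsp1 (0.118), with Tapbp at place 29. Within the pathway, H2-K1 and Psmb8 thus had a member among their closest 100 genes, and Nlrc5 and Tap1 did not.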
